A study of Mus musculus with 8 samples.

Results

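Somatostatin receptors, the ghrelin receptor and urocortin 3 carry short-range signals between the endocrine cells of the islet. The group named here has 6 genes (Sstr1, Sstr2, Sstr3, Sstr5, Ghsr and Ucn3), chosen as a list with earlier results of these data known and not ranked by their values, out of 17362 genes in the deposited table. Sstr2, Sstr3, Ghsr and Ucn3 had a row in it (4 of 6), and Sstr1 and Sstr5 were not analysed here. They were followed in the 24 columns of beta, alpha, delta and pancreatic polypeptide (PP) cells, which are 6 conditions in each of 4 cell types.

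The material was cultured mouse pancreatic islets (about 100 per sample) profiled by single nucleus RNA-seq. Wild type (WT) islets and islets of C57BL/6J mice with a whole-body knock-in of Med14 S983A, in which serine is replaced by alanine in the scaffold subunit of the Mediator complex, were each left untreated (CON), exposed to forskolin (FSK), a direct activator of adenylyl cyclase, or exposed to Exendin-4 (Ex-4), an agonist of the GLP-1 receptor, at 10 nM for 16 h. The age of the mice, the dose of FSK and the number of animals behind a pool are not given in the sources used here, and the knock-in is present in all cells of the mouse. The 8 sublibraries each hold nuclei of all 6 conditions, so they are not replicates, and the table gives 1 pooled value per condition and cell type. No test between conditions was therefore possible. Levels are given as counts per 10000 counts of the column (CP10K), and every bracketed range is a 95% interval from the counts, which covers counting error only and not the spread between mice, islet preparations or barcode wells.

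As background, delta cells release somatostatin, which acts through receptors coupled to inhibitory G proteins to lower cAMP and restrain secretion of insulin and glucagon. Mouse beta cells make urocortin 3, which is released with insulin and stimulates delta cells through the receptor encoded by Crhr2, closing a feedback loop between beta and delta cells. Ghrelin acts on the receptor encoded by Ghsr, which in the islet is known from delta cells. Genes that respond to cAMP often carry a cAMP response element (CRE), to which CREB binds, near their start, and the somatostatin gene is the classical example.

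The windows of 250 bases before the RefSeq gene start were read for these genes, and all were placed in GRCm39 by a single exact match. The full CRE palindrome TGACGTCA was present in 1.55% of 32851 RefSeq promoter windows (GRCm38.p6) of this length, and its shorter core TGACG, on either strand, in 17.8%, a share that includes every window with the full palindrome. The 30 bases around the motif are shown because they separate the ligand gene Sst and the receptor gene Sstr2, with the full palindrome in capitals, from Sstr3, with the core alone in capitals.
Sst, chr16:23709624-23709653, minus strand: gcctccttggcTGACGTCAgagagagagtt
Sstr2, chr11:113510084-113510113, plus strand: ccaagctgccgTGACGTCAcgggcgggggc
Sstr3, chr15:78428537-78428566, minus strand: ggagatggggggTGACGtaccaggtgcggg

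These motifs start 48 bases before the RefSeq start in Sst, 58 bases in Sstr2 and 9 bases in Sstr3. GENCODE places the starts of Sst and Sstr3 further upstream, so that the stretches shown for them lie inside the annotated genes, and the window of Ghsr also runs into its gene, whereas the stretches of Sstr2 and Ucn3 lie before theirs. The windows of Ghsr, of Ucn3 and of a second RefSeq start of Sstr3 held neither form, which says only that these letters are not there. The 250 bases before Ucn3 are given for the beta cell peptide whose level was lower under FSK below.
Ucn3, chr13:3995350-3995599, minus strand: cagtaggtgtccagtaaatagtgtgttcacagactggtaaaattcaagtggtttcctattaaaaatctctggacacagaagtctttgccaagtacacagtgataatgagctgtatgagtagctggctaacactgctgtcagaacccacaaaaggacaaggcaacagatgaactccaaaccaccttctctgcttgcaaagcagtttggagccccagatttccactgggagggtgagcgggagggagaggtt

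In GRCm39 (GENCODE M39), Sstr3 lies at chr15:78421208-78428886 on the minus strand, Sstr2 at chr11:113510145-113516862 on the plus strand, Ghsr at chr3:27425356-27433382 on the plus strand and Ucn3 at chr13:3990688-3995349 on the minus strand. All are short protein-coding genes, of 7679, 6718, 8027 and 4662 bases. Sstr2 overlaps Slc39a11 on the opposite strand, and since the use of strand in counting is not stated, reads of the pair cannot be told apart.

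Column totals ran from 1915006 to 3094377 counts in beta, 269394 to 810127 in alpha, 362410 to 631433 in delta and 38625 to 127727 in PP cells, so that 1 count is worth at most 0.00522 CP10K in beta cells but up to 0.259 in PP cells. The names of the columns were checked against marker lists. The summed level of 10 beta markers was 55.6 CP10K in beta cells (48.4 to 67.0 over the conditions), against 18.0 in alpha, 9.10 in delta and 6.56 in PP cells, that of 8 alpha markers was 67.7 in alpha cells and at most 7.81 in the other endocrine types, that of 6 delta markers was 18.7 in delta cells and at most 4.27, and that of 3 PP markers was 18.7 in PP cells and at most 4.62. Lepr was at 0 in the delta columns. Markers of non-endocrine cells summed to at most 0.751 in the endocrine types, against 52.9 in endothelial columns. In columns of other cells single beta markers stood at a median of 12.1% (alpha), 14.8% (delta) and 9.30% (PP) of their level in beta cells. Low genes were not listed alike in all conditions. WT CON, WT FSK and Med14 S983A FSK held 2975, 3338 and 4123 genes with 1 to 9 counts over the 9 cell types, but Med14 S983A CON held 377, WT Ex-4 18 and Med14 S983A Ex-4 0, and in those 3 conditions 3808, 5048 and 5918 genes stood at 0 throughout. A 0 in the latter 3 conditions was therefore read as a limit only where the gene had counts elsewhere in the same condition.

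The receptors and the ligand differed in which cell type held them. Sstr3, which encodes a Gi-coupled somatostatin receptor also found on primary cilia, had 891 counts in the endocrine columns and counts in all 24 of them. Ucn3 had 294 counts, in 16 columns. Sstr2, the somatostatin receptor known from alpha cells, and Ghsr were rare, with 19 and 17 counts. Because beta cells held 68.6% of all endocrine counts, alpha cells 15.9%, delta cells 13.4% and PP cells 2.10%, a gene spread evenly over cell types would show those shares.

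**Figure D1:**
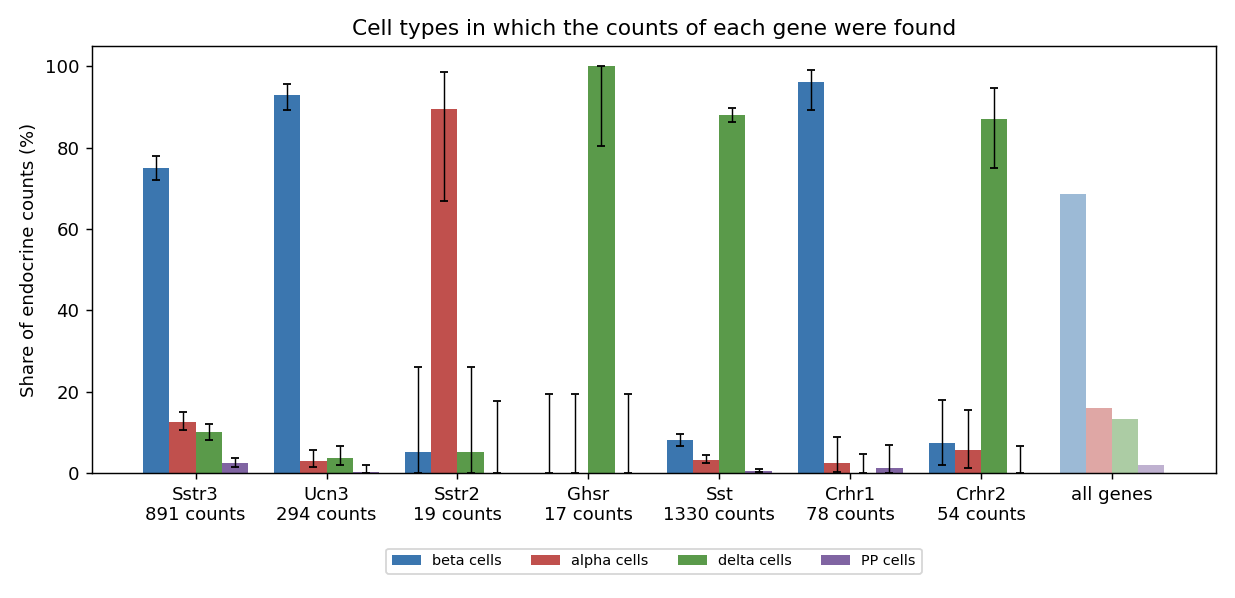
Share (%) of each gene's counts in the 24 endocrine columns that fell in beta, alpha, delta and PP cells, with exact 95% binomial intervals (counting error only); the pale bars give the shares over all genes. Sstr3 was near the shares of all genes, Ucn3 and Crhr1 were almost wholly in beta cells, Sstr2 in alpha cells, and Ghsr, Sst and Crhr2 in delta cells.

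Beta cells held 75.1% of the Sstr3 counts (72.1 to 77.9), against 92.9% of those of Ucn3 (89.3 to 95.5). Alpha cells held 89.5% of the Sstr2 counts (66.9 to 98.7), and delta cells held all 17 Ghsr counts (80.5 to 100%). The ligand and receptor genes followed beside the members showed the same kind of division: Sst, which encodes somatostatin, had 88.1% of its 1330 counts in delta cells, Crhr1, a receptor for urocortin peptides, had 96.2% of 78 in beta cells, and Crhr2 had 87.0% of 54 in delta cells.

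Sstr3 was thus the only member with counts in all 24 endocrine columns. Summed over the 6 conditions its level was 0.450 CP10K in PP (0.279 to 0.689, 21 counts), 0.439 in beta (0.407 to 0.474, 669 counts), 0.317 in alpha (0.261 to 0.382, 112 counts) and 0.299 in delta cells (0.240 to 0.368, 89 counts). In this order PP and beta cells did not differ beyond counting error (ratio of beta over PP 0.975, 0.633 to 1.59), and neither did alpha and delta cells (1.06, 0.795 to 1.42). Beta cells stood above alpha cells 1.38-fold (1.13 to 1.71) and above delta cells 1.47-fold (1.17 to 1.85), in 6 of 6 conditions each, although the conditions are not replicates. The alpha and delta levels were 72.2% and 68.2% of the beta level. In delta and PP cells this share lay above that of every one of the 10 beta markers (at most 40.6% and 31.6%), and in alpha cells above all but the zinc transporter gene Slc30a8, singled out after its values were seen, which was higher in alpha than in beta cells.

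Ucn3 was almost confined to beta cells. Its summed level was 0.179 CP10K in beta (0.159 to 0.202), 0.0370 in delta (0.0185 to 0.0662, 11 counts) and 0.0255 in alpha cells (0.0117 to 0.0484, 9 counts), and in PP cells 0.0214, from 1 count. Beta cells were 7.03-fold above alpha cells (3.65 to 15.5) and 4.84-fold above delta cells (2.66 to 9.82). The delta, alpha and PP values, whose intervals overlap, were 20.6%, 14.2% and 12.0% of the beta level, within the range of the beta markers in these columns.

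Sstr2 was seen in 2 conditions only, both of the mutant. Alpha cells had 8 counts in Med14 S983A CON (0.0987 CP10K, 0.0426 to 0.195) and 9 in Med14 S983A FSK (0.115, 0.0524 to 0.217), and in FSK beta and delta cells had 1 count each. Macrophages of Med14 S983A CON held 1 more. With 0 counts in Med14 S983A CON beta cells, the depth there allows a level up to 0.0156 CP10K, which is below the lower bound in alpha cells, while the limits in delta cells (0.0530) and PP cells (0.235) lie above that bound. In the other 4 conditions Sstr2 stood at 0 in all 9 cell types. The depth of alpha cells allows a level up to 0.0715 CP10K in WT CON and 0.111 in WT FSK, which lie above the lower bounds in the mutant, so a difference between the genotypes was not detectable at this depth, and for the Ex-4 conditions no limit can be given.

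Ghsr was seen in delta cells of 3 conditions, with 5 counts in WT CON (0.138 CP10K, 0.0448 to 0.322), 6 in WT FSK (0.140, 0.0515 to 0.305) and 6 in Med14 S983A FSK (0.0950, 0.0349 to 0.207). These levels did not differ beyond counting error. Beta cells had 0 counts in the same conditions, which allows levels up to 0.00996, 0.00970 and 0.0130 CP10K, each below the lower bound in delta cells. The limits in alpha cells, 0.0382 to 0.111 CP10K, and in PP cells, 0.325 to 0.633, were too high for such a statement. WT Ex-4, Med14 S983A CON and Med14 S983A Ex-4 had Ghsr at 0 in every column, so no limit can be given for them.

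To determine how the members varied with treatment and genotype, ratios of CP10K were taken for members with at least 20 counts in the 2 columns compared, and a ratio at or past 1.5-fold in either direction was counted. This left Sstr3 in beta cells (5 comparisons), in alpha and delta cells (4 each) and Ucn3 in beta cells (5); Sstr2, Ghsr and all members in PP cells never had enough counts. The comparisons within a genotype share their CON column, and WT CON is shared with the comparison of genotypes.

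Sstr3 in beta cells was 0.329 CP10K in WT CON (99 counts, 0.267 to 0.400), 0.326 with FSK (101 counts, 0.266 to 0.397) and 0.547 with Ex-4 (163 counts, 0.466 to 0.637). In Med14 S983A beta cells it was 0.535 in CON (103 counts, 0.437 to 0.649), 0.391 with FSK (90 counts, 0.314 to 0.480) and 0.590 with Ex-4 (113 counts, 0.486 to 0.709). The 3 highest values were thus WT Ex-4, Med14 S983A CON and Med14 S983A Ex-4, whose intervals overlap each other and lie apart from those of WT CON and WT FSK. The interval of Med14 S983A FSK overlapped those of all other conditions but Med14 S983A Ex-4. The 3 conditions with the highest values are also those in which few or no low genes were listed. WT Ex-4, Med14 S983A CON and Med14 S983A Ex-4 held 18, 377 and 0 such genes. WT CON, WT FSK and Med14 S983A FSK held 2975, 3338 and 4123. Whether this difference in listing bears on the Sstr3 levels was not tested.

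In alpha cells Sstr3 was 0.262, 0.148 and 0.266 CP10K in WT CON, FSK and Ex-4, from 11, 4 and 12 counts. For the mutant CON, FSK and Ex-4 pools it was 0.346, 0.369 and 0.353, from 28, 29 and 28 counts. The mutant values were all above the WT values, yet every interval overlapped every other. In delta cells it was 0.248, 0.117 and 0.463 in WT, from 9, 5 and 20 counts, and 0.388, 0.206 and 0.362 in the mutant, from 22, 13 and 20 counts, with FSK the lowest of each genotype and only the intervals of WT FSK and WT Ex-4 apart. PP cells had 1 to 7 counts a condition.

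**Figure D2:**
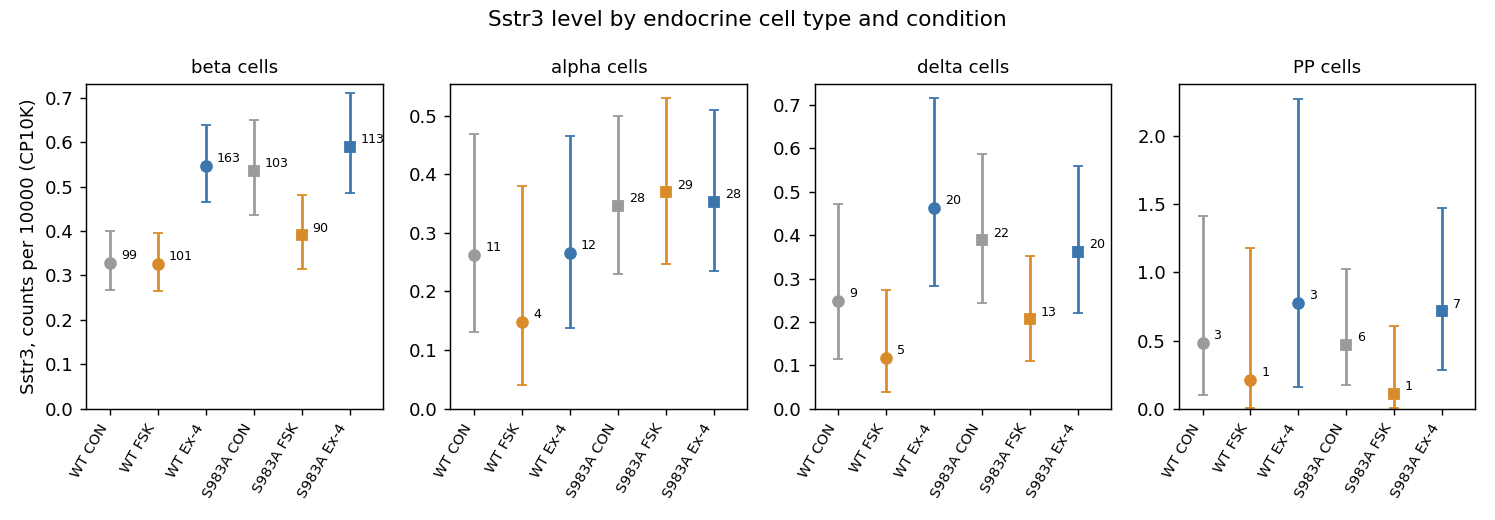
Sstr3 level (CP10K) in beta, alpha, delta and PP cells in the 6 conditions, circles for WT and squares for Med14 S983A (S983A), with the number of counts beside each point and exact 95% Poisson bars (counting error only). The vertical scales differ. In beta cells WT Ex-4 and the CON and Ex-4 pools of the mutant lie above WT CON and WT FSK, in alpha and PP cells all bars overlap, and in delta cells only those of WT FSK and WT Ex-4 lie apart.

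After Ex-4, WT beta cells had 1.66-fold more Sstr3 than WT CON (1.29 to 2.16). Ratios past 1.5-fold were common in this comparison, at 42.6% of the 11662 genes tested in beta cells, and the median of all of them was 1.16, so relative to the median gene the ratio was 1.43 and no longer past the threshold. Genes also differed by length. A lowess trend on gene length stood at 1.81 for genes as long as Sstr3, so that relative to it Sstr3 was 0.922, on the other side of 1. In delta cells Sstr3 went from 9 counts in WT CON (0.248 CP10K) to 20 in WT Ex-4 (0.463), a ratio of 1.87 (0.812 to 4.65) whose interval includes 1, where 43.3% of all genes tested were past the threshold and the trend at this length was 1.96, again placing Sstr3 below it (0.953). In alpha cells the levels were 0.262 and 0.266 (ratio 1.01, 0.409 to 2.53), with 44.7% of genes past the threshold and a ratio of 0.591 relative to the trend.

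Ucn3 in beta cells was 0.232 CP10K in WT CON (70 counts, 0.181 to 0.294), 0.107 with FSK (33 counts, 0.0734 to 0.150) and 0.272 with Ex-4 (81 counts, 0.216 to 0.338). In the mutant it was 0.166 in CON (32 counts, 0.114 to 0.235), 0.0955 with FSK (22 counts, 0.0599 to 0.145) and 0.183 with Ex-4 (35 counts, 0.127 to 0.254). FSK gave the lowest value in each genotype, with intervals apart from CON and Ex-4 in WT and overlapping those of CON and Ex-4 in the mutant. The Ex-4 value of WT was 1.17 times that of CON (0.839 to 1.63), which does not differ beyond counting error. Genes of its length stood at 2.04 in this comparison, relative to which Ucn3 was at 0.573.

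**Figure D3:**
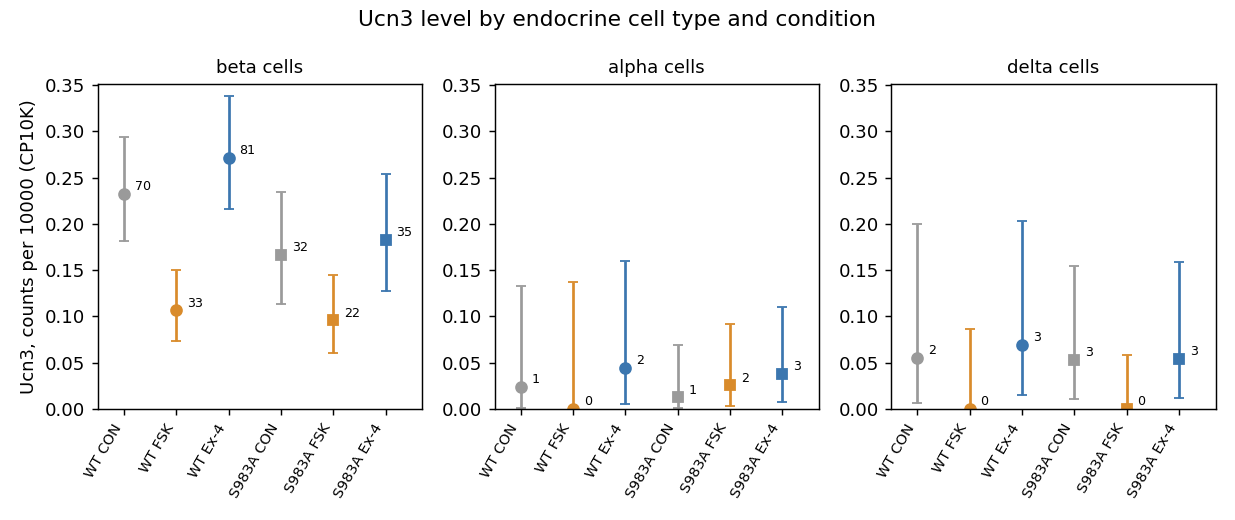
Ucn3 level (CP10K) in beta, alpha and delta cells in the 6 conditions, drawn on a common vertical scale with counts beside the points and exact 95% Poisson bars (counting error only). The FSK pools were the lowest of each genotype in beta cells, with 33 and 22 counts, and alpha and delta cells had 0 to 3 counts each.

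In WT beta cells Ucn3 after FSK was 0.459 times the CON level (0.294 to 0.704). In this comparison 41.9% of the genes tested were past the threshold and their median ratio was 0.802. Relative to that median Ucn3 was at 0.572, still past 1.5-fold, but the trend for genes of its length was 0.497, from which Ucn3 differed little (0.923). Sstr3 in the same columns had a ratio of 0.993 (0.745 to 1.32), 1.24 times the median gene and 1.81 times the trend at its length. Alpha and delta cells had 4 and 5 Sstr3 counts after FSK, too few to be compared.

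In Med14 S983A islets the ratios for Ex-4 against CON stayed near 1. Sstr3 was at 1.10 in beta (0.837 to 1.45), 1.02 in alpha (0.583 to 1.79) and 0.932 in delta cells (0.482 to 1.79), and Ucn3 in beta cells was at 1.10 (0.661 to 1.83). None of these 4 ratios was past 1.5-fold, and neither were most genes, of which 11.6% (beta), 16.1% (alpha) and 18% (delta cells) were past it. Whether the Ex-4 ratio of Sstr3 in beta cells differs between the genotypes was not tested; their intervals overlap (1.29 to 2.16 in WT).

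After FSK, mutant beta cells had Ucn3 at 0.575 times the CON level (0.318 to 1.02) and Sstr3 at 0.730 (0.544 to 0.979), and the interval of Ucn3 includes 1. Here 55.1% of genes in beta cells were past the threshold and their median was 0.897, relative to which Ucn3 was at 0.641 and Sstr3 at 0.814. Relative to the trend at their lengths (0.453 and 0.520) both lay on the other side of 1, Ucn3 at 1.27 and Sstr3 at 1.41. In delta cells Sstr3 was at 0.530 (0.245 to 1.10, 13 against 22 counts), with 49.7% of genes past the threshold, and in alpha cells at 1.07 (0.613 to 1.86), with 37.1% and a median of all genes of 1.08.

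Untreated mutant beta cells had 1.63-fold more Sstr3 than untreated WT beta cells (1.22 to 2.17), in a comparison where 49.1% of genes were past the threshold. The trend at the length of Sstr3 was 1.76, and relative to it the ratio was 0.925. Delta cells gave 1.56 (0.692 to 3.86), with 49.7% of genes past the threshold and 0.723 relative to the trend, and alpha cells 1.32 (0.636 to 2.93), with 50.2% and 0.731. Ucn3 in beta cells was at 0.715 (0.455 to 1.10), not past the threshold, while genes of its length stood at 2.04, so that relative to them it was at 0.351.

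**Figure D4:**
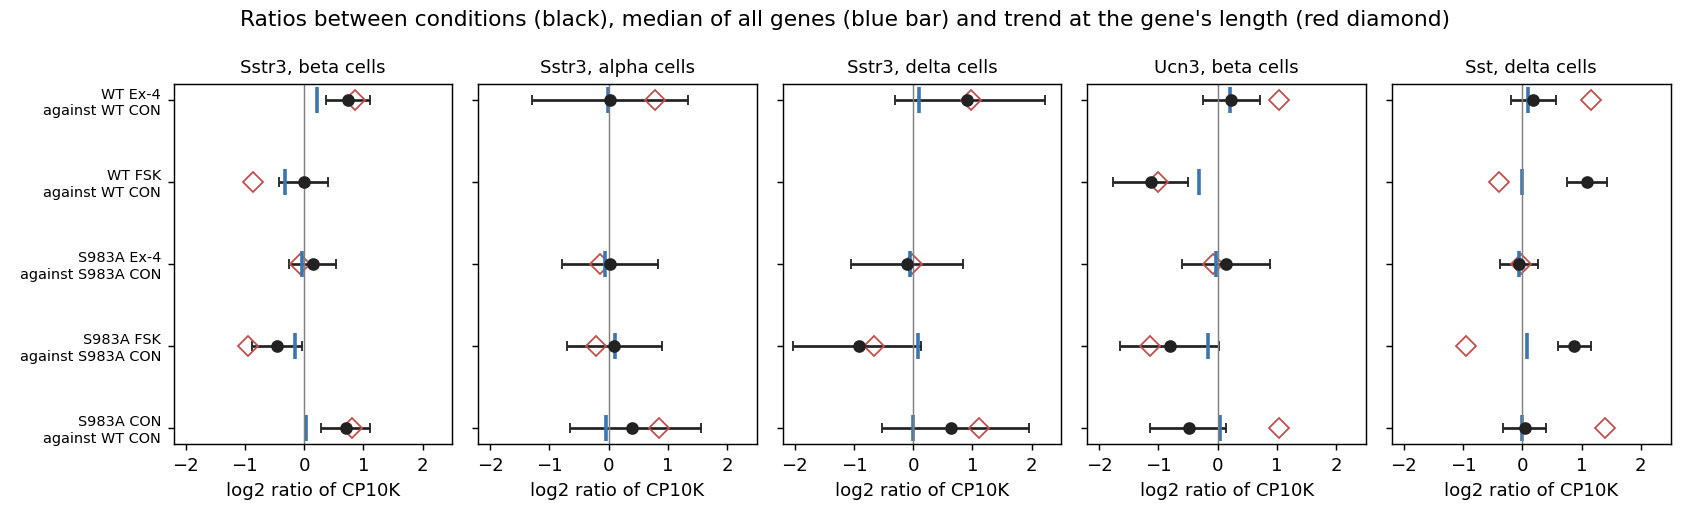
Log2 ratio of CP10K for the 5 comparisons (rows) in the 5 gene and cell type pairs (panels), as black points with exact 95% intervals (counting error only), beside the median of all genes tested (blue bar) and the trend at the gene's length (open red diamond); S983A is Med14 S983A. Pairs under 20 counts are not drawn. Sstr3 lies near the diamond in WT Ex-4 for beta and delta cells and in the mutant CON comparison for beta cells. In delta cells it lies below the diamond in the mutant CON comparison (ratio 1.56, trend 2.16). Ucn3 lies near it in WT FSK, and Sst in delta cells lies far above it under FSK in both genotypes.

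Over all members, 7 of 18 ratios were past 1.5-fold, a number that reads against backgrounds of 11.6% to 55.1% and is therefore not a result about these genes. In beta cells the share of counts from ribosomal RNA linked and mitochondrial genes was highest in the 3 conditions with the highest Sstr3. It was 3.45% in WT CON and 2.86% in WT FSK, 9.18% in WT Ex-4, 11.9% in Med14 S983A CON, 2.75% in Med14 S983A FSK and 14.9% in Med14 S983A Ex-4. The lowest share, in Med14 S983A FSK, did not go with the lowest Sstr3 level (0.391 CP10K, against 0.329 in WT CON and 0.326 in WT FSK). In alpha cells the share was 3.95% in WT CON and 12.5% in WT Ex-4, with Sstr3 at 0.262 and 0.266 CP10K. A link was not tested. With the ribosomal RNA linked and mitochondrial genes left out of the column totals the Sstr3 ratios in beta cells were 1.77 for WT Ex-4, 0.987 for WT FSK, 1.14 for mutant Ex-4, 0.661 for mutant FSK, then past 1.5-fold, and 1.78 for the untreated genotypes. In pools such as these, fewer cells with a transcript and less of it per cell cannot be told apart.

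Sst, which encodes the ligand of the receptors, was higher with FSK in delta cells of both genotypes. In delta cells it was 2.87 CP10K in WT CON (2.34 to 3.48), 6.10 with FSK (5.39 to 6.89) and 3.27 with Ex-4 (2.75 to 3.85). In the mutant it was 2.95 in CON (2.52 to 3.43), 5.42 with FSK (4.86 to 6.02) and 2.84 with Ex-4 (2.41 to 3.32). The FSK pools were above all others in both genotypes, with intervals apart. The ratio to CON was 2.13 in WT (1.69 to 2.70) and 1.84 in the mutant (1.52 to 2.22), while 38.9% and 49.7% of genes in delta cells were past 1.5-fold and the trend at its length lay below 1, at 0.763 and 0.521. Ex-4 gave ratios of 1.14 in WT (0.877 to 1.48) and 0.964 in the mutant (0.770 to 1.21), and the untreated genotypes did not differ beyond counting error (1.03, 0.800 to 1.33). The trend was 2.22 for WT Ex-4 and 2.64 for the untreated genotypes, relative to which Sst was at 0.512 and 0.389.

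**Figure D5:**
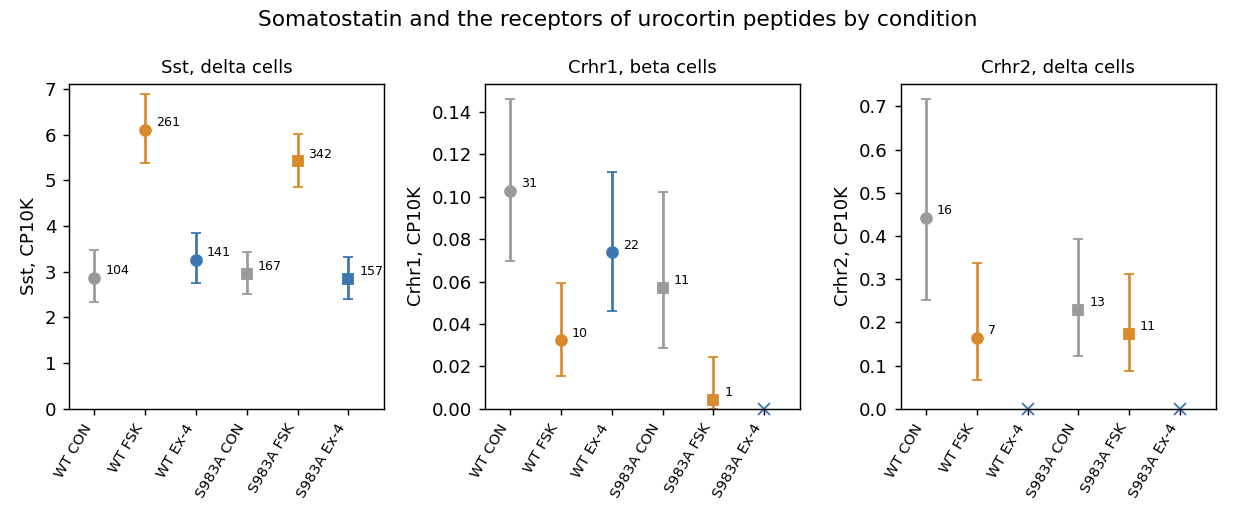
Level (CP10K) of Sst in delta cells, Crhr1 in beta cells and Crhr2 in delta cells in the 6 conditions, with counts beside the points and exact 95% Poisson bars (counting error only); a cross marks a condition in which the gene is listed at 0 in all cell types and no limit can be drawn. Sst was highest in the FSK pools of both genotypes, and Crhr1 and Crhr2 were highest in WT CON.

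Of the receptors for urocortin peptides, Crhr1 in beta cells had 31 counts in WT CON (0.103 CP10K), 10 with FSK (0.0323) and 22 with Ex-4 (0.0738). The mutant had 11, 1 and 0 in the same order, the last in a condition where every column of the gene was 0. Its ratio after FSK in WT was 0.314 (0.137 to 0.657), lower relative to the median gene too (0.392). In untreated mutant beta cells it was 0.555 times WT (0.252 to 1.13). Crhr2 in delta cells had 16 counts in WT CON (0.441 CP10K), 7 in WT FSK (0.164), 13 in Med14 S983A CON (0.230) and 11 in Med14 S983A FSK (0.174), with ratios of 0.371 for FSK in WT (0.129 to 0.953) and 0.759 in the mutant (0.308 to 1.84). Every Crhr2 column of the Ex-4 conditions was 0. Untreated mutant delta cells had 0.520 times the WT level (0.230 to 1.15). Mrap2, an accessory protein of the ghrelin receptor, had 29 counts in beta, 9 in alpha and 1 in delta cells, and Ghrl, encoding ghrelin, had 1 count in all. Cort and Sstr4 were not analysed here.

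The other genes of these pathways were followed in 4 lists of 53 genes (paracrine ligands, other paracrine receptors, ghrelin system, Gi/o effectors), of which 36 had a row. Over the 4 endocrine types, 19 gene and cell type pairs were higher and 16 lower of 84 after Ex-4 in WT, 12 and 26 of 84 after FSK in WT, 7 and 3 of 97 after Ex-4 in the mutant, 22 and 29 of 92 after FSK in the mutant, and 28 and 21 of 92 in the untreated mutant against WT. In delta cells the counts were 3 higher and 10 lower of 24 after FSK in WT. Of all genes there, 38.9% were past the threshold, 18.2% higher and 20.7% lower. In mutant delta cells they were 6 and 10 of 26, beside 49.7% of all genes, 27.8% higher and 21.9% lower. After Ex-4 in the mutant 1 of 29 was past the threshold in beta cells (11.6%). The shares of all genes in the columns not yet given were 30.1% in alpha cells after FSK in WT and, in PP cells, 36.5% for WT Ex-4, 35.8% for WT FSK, 26.4% for mutant Ex-4, 48.6% for mutant FSK and 47.8% for the genotypes. No gene of the ghrelin system had enough counts for a ratio.

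Among other paracrine receptors in beta cells, 2 of 11 were higher and 5 lower after FSK in WT (median ratio 0.841, against 0.802 for all genes), and 3 of 10 were higher and 3 lower in the mutant (1.03, against 0.897), beside 41.9% and 55.1% of all genes past the threshold. Gabbr2, a subunit of the GABA-B receptor, went from 7.94 to 16.3 CP10K in WT (ratio 2.05, 1.96 to 2.16) and from 5.55 to 17.6 in the mutant (3.18, 2.97 to 3.40), while its partner subunit Gabbr1 went from 0.511 to 0.204 (0.398, 0.292 to 0.537) and from 0.976 to 0.330 (0.338, 0.255 to 0.443). The glucagon receptor gene Gcgr was at 0.273 of CON in WT (0.168 to 0.430) and 0.178 in the mutant (0.103 to 0.295). In alpha cells Gabbr2 was higher as well, 3.14-fold in WT (2.22 to 4.51) and 3.84-fold in the mutant (2.98 to 5.01). The incretin receptor genes were lower in delta cells of both genotypes after FSK. Gipr was at 0.109 in WT (0.0334 to 0.276, 5 against 39 counts) and 0.196 in the mutant (0.116 to 0.317), and Glp1r at 0.160 (0.0810 to 0.291) and 0.254 (0.163 to 0.384). Gipr was also lower in beta cells, at 0.585 in WT (0.526 to 0.651) and 0.319 in the mutant (0.279 to 0.365), and in alpha cells, at 0.607 (0.318 to 1.11) and 0.162 (0.0968 to 0.257). In WT, Glp1r was likewise at 0.591 in beta cells (0.556 to 0.627) and at 0.547 in alpha cells (0.267 to 1.05). In mutant beta cells the 3 lower receptors were Gcgr, Gabbr1 and Gipr, and Glp1r was not among them. In the other comparisons, Chrm3, the M3 muscarinic receptor gene, was at 0.489 in delta cells after Ex-4 in WT (0.392 to 0.608) and at 0.475 in untreated mutant against WT beta cells (0.453 to 0.498). Relative to the length trend these Chrm3 ratios were 0.802 and 0.783, no longer past 1.5-fold. After Ex-4 in WT, Chrm3 was also lower in beta cells, at 0.536 (0.516 to 0.557). In alpha and PP cells it was at 1.03 and 0.694, neither past 1.5-fold.

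The Gi/o effectors act downstream of the somatostatin receptors. In beta cells after FSK, 2 of 11 were higher and 4 lower in each genotype (median ratios 0.939 in WT and 0.908 in the mutant), where all genes had medians of 0.802 and 0.897 and 41.9% and 55.1% were past the threshold. Kcnj6, a subunit of G protein-gated potassium channels, went from 1.66 to 5.59 CP10K in WT (3.37, 3.05 to 3.73) and from 1.15 to 4.33 in the mutant (3.76, 3.25 to 4.37), and in mutant delta cells it was 2.24-fold higher (1.80 to 2.79). Arrb2, encoding an arrestin, was at 0.312 (0.193 to 0.491) and 0.198 (0.129 to 0.294) of CON in beta cells, and in the mutant Ptpn6 was at 0.468 (0.313 to 0.692) and Gnai3, an inhibitory G protein subunit, at 3.43 (2.74 to 4.32). In untreated mutant beta cells Gnai3 was at 0.455 of WT (0.360 to 0.571) and Arrb2 at 2.53 (1.90 to 3.38). In alpha cells the channel gene Kcnj3 was at 0.187 after Ex-4 in WT (0.135 to 0.256), 0.371 after FSK in WT (0.274 to 0.497), 0.124 in the untreated mutant (0.0911 to 0.165) and 2.08 after FSK in the mutant (1.51 to 2.90). Kcnj6 and Gnai1 in alpha cells were likewise lower after Ex-4 in WT, at 0.480 (0.384 to 0.597) and 0.383 (0.274 to 0.530), and in the untreated mutant, at 0.465 (0.385 to 0.560) and 0.288 (0.214 to 0.387). Relative to the length trend Kcnj6 was at 0.728 and 0.779 in these 2 comparisons, no longer past 1.5-fold. Gnai1 was then at 0.459 and 0.379.

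Of the paracrine ligands, Iapp, encoding the beta cell peptide amylin, was at 0.454 after Ex-4 in WT beta cells (0.427 to 0.482), at 0.388 in untreated mutant against WT beta cells (0.360 to 0.418) and at 3.38 after FSK in mutant beta cells (3.14 to 3.65). Gcg in alpha cells had the same order, at 0.397 (0.374 to 0.422), 0.411 (0.391 to 0.431) and 2.64 (2.52 to 2.75). After FSK in WT these genes were at 1.21 (Iapp in beta cells) and 1.34 (Gcg in alpha cells), and after Ex-4 in the mutant at 1.07 and 0.958, none past 1.5-fold. Hormone transcripts of other cell types moved in the same columns: Gcg in beta cells was 3.34-fold higher in the untreated mutant (2.66 to 4.21) and Sst in beta cells 4.35-fold (1.96 to 10.6, 25 against 9 counts), Ins2 in alpha cells was 2.16-fold higher after Ex-4 in WT (1.52 to 3.12), Gcg in PP cells was 5.99-fold higher after FSK in the mutant (3.70 to 10.1), and in mutant delta cells after FSK Ins1 and Ins2 were at 0.335 (0.219 to 0.502) and 0.334 (0.234 to 0.468). Iapp in mutant delta cells after FSK was at 2.95 (2.31 to 3.79). Its summed level in delta cells was 28.8% of that in beta cells, above the shares of Ins1 (17.8%) and Ins2 (14.1%). Ins1 was also at 0.422 in mutant beta cells after FSK (0.387 to 0.459) and 2.24-fold higher in untreated mutant delta cells (1.43 to 3.61), both of which turned to the other side of 1 relative to the length trend, at 1.25 and 0.716. In mutant delta cells after FSK the trend left Ins1 at 0.844, no longer past 1.5-fold, and Ins2 at 0.283. Iapp in delta cells was at 0.423 after Ex-4 in WT (0.307 to 0.577) and 0.445 in the untreated mutant (0.335 to 0.590). Their part in the levels of the members was not tested.

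Genes with a pattern like that of a member were taken over the 24 endocrine columns among 6347 genes with at least 500 counts. The deposited values of Ucn3 were most alike to Cc2d2b (Pearson r = 0.908), Insrr (0.900) and Pdx1 (0.896), the last being the beta cell transcription factor of the marker list. Those of Sstr3 were most alike to ENSMUSG00000121395 (0.857), Plxnb2 (0.845) and Ufsp2 (0.842). The columns share their libraries, and cell types differ in depth, so these values are descriptions without a test.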

How the data were processed

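Nuclei of mouse islets were profiled by combinatorial barcoding, with 8 sublibraries that each held all 6 conditions. Per the labels and the methods of the study, the authors aligned to mm39, filtered nuclei by percentiles and merged the samples. They then corrected batch effects, annotated cell types and kept a fixed number of nuclei per sample. The methods do not say what was taken as a batch. The annotation release, the use of strand and whether summed counts were raw or corrected are not given in the sources used here, and the table does not give how many nuclei stand behind a column. The authors deposited natural log values, ln(1 + 10000 × count/total), of 17362 genes in 54 columns (6 conditions, 9 cell types).

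Counts were recovered from these values, and 100% came out within 0.001 of a whole number. Ratios of CP10K were counted past 1.5-fold with at least 20 counts in the 2 columns, with exact conditional (Clopper-Pearson) 95% intervals, levels had exact Poisson and shares exact binomial intervals, and a 0 allowed up to 3 counts. All intervals and limits cover counting error only. Since each condition is 1 pool in its own barcode wells, condition and islet preparation cannot be told apart, and no test was run. Gene lengths (95.2% of genes matched) came from GENCODE M39 on GRCm39, with a lowess span of 0.3. The calculations were tested on simulated data. Named were all members, the ligand and receptor genes followed beside them, list genes past 2-fold with at least 100 counts, and the 3 genes most alike to each member with at least 200 counts. The members and lists were chosen with earlier results of these data known. Calculations ran in Python 3.11.15 with scipy 1.17.1 for the intervals, statsmodels 0.14.6 for the trend, and pandas 2.3.3 and numpy 2.4.6 for tables; figures were drawn with matplotlib 3.10.9.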

Additional observations from a re-analysis of the deposited data

Results flagged for a closer look

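Sstr3 had counts in 2 groups of columns outside the endocrine cells. The endothelial columns held 15 counts over the 6 conditions (1, 2, 0, 3, 2 and 7 in the order WT CON, FSK, Ex-4 and Med14 S983A CON, FSK, Ex-4), a level of 0.216 CP10K (0.121 to 0.356). This was 49.1% of the beta cell level, while the 10 beta markers stood at 8.17% to 20.3% of theirs in these columns. The neurons columns held 9 counts, 7 of them in WT Ex-4 (1.35 CP10K) and 2 in Med14 S983A Ex-4, in columns of 4044 to 58294 counts whose summed beta markers reached 45.0% of the beta cell level. No control column exists for either, and the source of these counts was not tested.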

How the results depend on the processing

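No paired analysis was possible because each condition is 1 pooled column, and leaving out a replicate was not possible for the same reason. Under every alternative run, Sstr3 stayed higher in beta than in alpha cells (1.25 to 1.69) and delta cells (1.32 to 1.59), as did Ucn3 (5.77 to 9.74 and 4.21 to 4.95). The lowest Sstr3 ratios were of WT CON alone and within counting error. There the interval in beta cells (0.267 to 0.400 CP10K) lay inside those in alpha (0.131 to 0.469) and delta cells (0.114 to 0.471). The order of Sstr3 in beta against PP cells (0.681 to 1.13) and alpha against delta cells (0.851 to 1.13) turned, within counting error. Of 72 member ratios under other scalings, 59 stayed within their counting interval, 8 moved beyond it and 5 that had been past 1.5-fold turned to the other side of 1, all with the length trend removed: Sstr3 in beta cells 0.922 and delta cells 0.953 (WT Ex-4), 0.925 and 0.723 (untreated genotypes), and Ucn3 in beta cells 1.27 (mutant FSK). Ratios not past 1.5-fold also turned with that trend removed, Sstr3 in beta cells to 1.81 (WT FSK) and 1.41 (mutant FSK), Sstr3 in alpha cells to 0.591 (WT Ex-4) and 0.731 (genotypes), and Ucn3 in beta cells to 0.573 (WT Ex-4). Ins1 turned likewise, to 1.25 in beta cells (mutant FSK) and 0.716 in delta cells (untreated genotypes). These list gene alternatives were chosen after seeing the data; of 256 such ratios 171 stayed, 83 moved and 2 turned.

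The members counted past 1.5-fold depended on the rule. On the log2(CP10K + 1) scale, which compresses low genes, 0 were counted in WT Ex-4, WT FSK, mutant FSK and the untreated genotypes. The main rule gave 2, 1, 2 and 2 there, of 4, 2, 4 and 4 tested. Of all genes in beta cells, 315 of 11662, 226 of 10681, 790 of 10854 and 539 of 11195 were past it on this scale. In mutant Ex-4 it was 5 of 10728. On it even a fall to 0 from 0.232 CP10K (Ucn3, WT CON beta cells) or 0.388 (Sstr3, mutant CON delta cells) is not past 1.5-fold. For the pairs counted under FSK the outcome was thus fixed in advance and decides nothing. At 2-fold 0 were counted in WT Ex-4, mutant FSK and the genotypes. With at least 50 counts each of these had 1, of 2, 3 and 2 tested. With no count filter the numbers were 5 of 9 (WT Ex-4), 4 of 9 (WT FSK), 3 of 8 (mutant Ex-4), 5 of 11 (mutant FSK) and 4 of 10 (genotypes). Here a 0 was set to 3 counts, also in conditions where the gene stood at 0 throughout and no limit can be given. Ghsr in delta cells (WT Ex-4, mutant FSK and genotypes) and Sstr2 in alpha cells (mutant Ex-4) were counted in this way. All these numbers but that of WT FSK thus rest in part on the listing of low genes. Centring left 1 in WT Ex-4, and with the length trend removed the count was 0 in mutant FSK and 1 between the genotypes, the latter a new one, Ucn3 in beta cells at 0.351. In WT Ex-4 and WT FSK that count was 2 and 1 as before, but of other pairs, Ucn3 in beta and Sstr3 in alpha cells in WT Ex-4 and Sstr3 in beta cells in WT FSK. For the lists, the log2 scale gave 13, 13, 1, 24 and 14 (WT Ex-4, WT FSK, mutant Ex-4, mutant FSK, genotypes). The main rule gave 35, 38, 10, 51 and 49, and 2-fold gave 18, 20, 3, 31 and 23. All were of 84, 84, 97, 92 and 92 pairs. At least 50 counts gave 24 of 59 in WT FSK, against 38 of 84, and 2 of 75 in mutant Ex-4, against 10 of 97. The shares of all genes at 2-fold, with at least 50 counts or with no filter are not given here. Sstr2, Ghsr and all members in PP cells had under 20 counts in every comparison.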
